A study of Mus musculus with 7 samples.

Results

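Enzymes that make and salvage deoxynucleotides were examined in mouse embryonic fibroblasts (MEFs) with and without a 4.3 Mb deletion of chromosome 4. The genes are Rrm1, Rrm2, Rrm2b, Tyms, Tk1, Dut, Dck, Cad and Umps, chosen by name and found by Ensembl identifier, and all 9 were among the 15531 genes tested. RNA-seq of polyA+ RNA was done on 7 primary MEF lines at passage 4, taken 10 hours after confluency, from embryos at embryonic day 13.5. The 4 Df/+Bl6 lines carried the engineered Df chromosome 4, from 129S5/SvEvBrd, beside an intact C57BL/6J homologue. The 3 +129/+Bl6 lines were F1 hybrids of those strains with a 129S5/SvEvBrd chromosome 4 that has no deletion, so every line carried a haploid genome of each strain. The Df chromosome came from chimeras made with engineered embryonic stem cells, and no litter, sex or batch is given for the lines, so a difference in any of these cannot be told apart from the deletion.

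The deposited tables hold 1 mean normalized count per gene and genotype, for the genes the authors called differentially expressed (DE) with DESeq at a false discovery rate (FDR) of 0.05. A mean normalized count is the number of read pairs on a gene divided by a size factor of the library, averaged over the lines of a genotype. No value per line and no total count was used, so the depth is unknown, no SD can be given, and no new test was run. A gene is named as called, risen or fallen here only where it is in such a table, and its direction was taken from the means, whose columns name no genotype and were assigned by inference from the sign of the study's fold changes. Of the 12 fibroblast markers looked up, all were tested and 1, the matrix protein gene Fn1, was called, with a fall of 0.69 on the log2 scale. That count is near the share of all tested genes called, 8.67%. In bulk RNA, fewer cells of a type and less RNA per cell cannot be told apart.

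Ribonucleotide reductase turns ribonucleotides into deoxyribonucleotides, the step that sets the supply for DNA synthesis. It pairs a large catalytic subunit, R1 from Rrm1, with a small subunit that carries the radical, either R2 from Rrm2 in cycling cells or p53R2 from Rrm2b, a p53 target that serves repair and mitochondrial DNA outside S phase. Dut removes dUTP and yields dUMP, Tyms methylates dUMP to dTMP, and Tk1 and Dck salvage deoxynucleosides from outside the cell or from DNA breakdown. Cad and Umps catalyse the first and last steps of de novo UMP synthesis, which feeds RNA as well as DNA. Rrm2, Tyms and Tk1 are textbook genes of the G1/S transition.

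The members lie apart from each other and from the deletion. On GRCm38, the build of the authors' transcriptome, RefSeq places Rrm1 on chromosome 7 (102441695 to 102469771), Rrm2 on chromosome 12 (24708254 to 24714146), Rrm2b on chromosome 15 (37923952 to 37961119) and Tk1 on chromosome 11 (117815519 to 117826087). Dut is on chromosome 2 (125247248 to 125259049) and Umps on chromosome 16 (33954782 to 33967038). Chromosome 5 carries Tyms (30038546 to 30073645), Cad (31054620 to 31078479) and Dck (88765013 to 88783277), and no member is on chromosome 4.

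Called members on different chromosomes had similar rises between the group means, though whether they vary together between lines could not be seen. The promoters of the members were searched for letters that G1/S and housekeeping promoters often hold. RefSeq (GRCm38.p6) gave a promoter for 8 of the 9 members, all but Rrm2b, and the 250 bases before each start were read on both strands. The 100 bases before the start are printed, 5′ to 3′ on the strand of the gene, for 3 called members and for Umps, which was not called. These 4 were taken because the stretch lies wholly outside the annotated gene. Capitals mark the CCAAT box, the GC box GGGCGG, the element TTTGAA of many late cell cycle promoters, and E2F-like letters. The latter are TTCCCGC and its variants, which are TTCGCGC, then TTGCCGC, and last TTGGCGC. The reverse complement of each was marked too, and no match overlapped another in a member.
Rrm1, chr7:102441595-102441694, plus strand: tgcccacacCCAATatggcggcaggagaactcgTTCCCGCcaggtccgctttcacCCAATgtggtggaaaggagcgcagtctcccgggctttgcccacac
Rrm2, chr12:24708154-24708253, plus strand: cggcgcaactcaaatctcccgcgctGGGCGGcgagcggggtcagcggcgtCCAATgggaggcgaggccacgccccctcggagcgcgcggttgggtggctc
Dck, chr5:88764913-88765012, plus strand: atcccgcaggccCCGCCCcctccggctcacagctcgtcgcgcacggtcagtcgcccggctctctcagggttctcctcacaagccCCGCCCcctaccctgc
Umps, chr16:33967039-33967138, minus strand: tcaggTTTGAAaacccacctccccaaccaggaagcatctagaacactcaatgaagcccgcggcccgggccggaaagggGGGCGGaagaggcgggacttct

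In these stretches the CCAAT box occurs at -91 and -45 in Rrm1 and at -50 in Rrm2, and an E2F-like match at -67 in Rrm1, counted from the start. Over the 250 bases, 2 of the 8 members held CCAAT (Rrm1 and Rrm2), as did 33.8% of the 32851 promoters in the RefSeq table. An E2F-like match was present in the same 2 members and in 7.89% of all promoters. GGGCGG was present in 7 of the 8, all but Rrm1, against 32.7% of all, and TTTGAA in Dck and Umps against 16.0%. None of these letter groups was in every called member and absent from Cad and Umps, which were not called. A match describes these letters in this window only and is no evidence of a bound factor.

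Transcripts of 6 of the 9 members, Rrm1, Rrm2, Tyms, Dut, Tk1 and Dck, were called in the combined comparison of counts summed over both alleles, all 6 higher in Df/+Bl6 MEFs. Their rises were close in size, from 1.73-fold for Tk1 to 1.89-fold for Dck, with a median log2 ratio of 0.87 between the group means. Rrm2b, Cad and Umps were tested and not called. For background, 8.67% of all tested genes were called, 5.13% higher and 3.54% lower in Df/+Bl6.

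The catalytic subunit gene Rrm1 (ENSMUSG00000030978) had a mean normalized count of 31105 in Df/+Bl6 and 17112 in +129/+Bl6 MEFs. This is a log2 ratio of 0.86, or 81.8% more transcript. The radical subunit gene Rrm2 (ENSMUSG00000020649) had means of 21021 and 11234, a log2 ratio of 0.90. These were the most abundant of the called members by count, and each exceeded the mean of at least 89.7% of all called genes. Whether single lines of the genotypes overlap could not be examined for any member.

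A longer transcript collects more reads, so levels were compared between genes per kilobase of the longest annotated transcript (GENCODE on NCBI37). On that scale Rrm1 had 7782 normalized counts per kilobase in Df/+Bl6 and 4281 in +129/+Bl6, and Rrm2 had 9585 and 5123. The level of Rrm1 over that of Rrm2 was thus 0.812 with the deletion and 0.836 without it. The group means of both transcripts therefore kept nearly the same proportion while they rose. The proportion of the subunit proteins was not measured. The alternative small subunit gene Rrm2b (ENSMUSG00000022292) was tested and not called, and no level of it was used, so the balance of R2 and p53R2 transcripts was not measured.

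**Figure D1:**
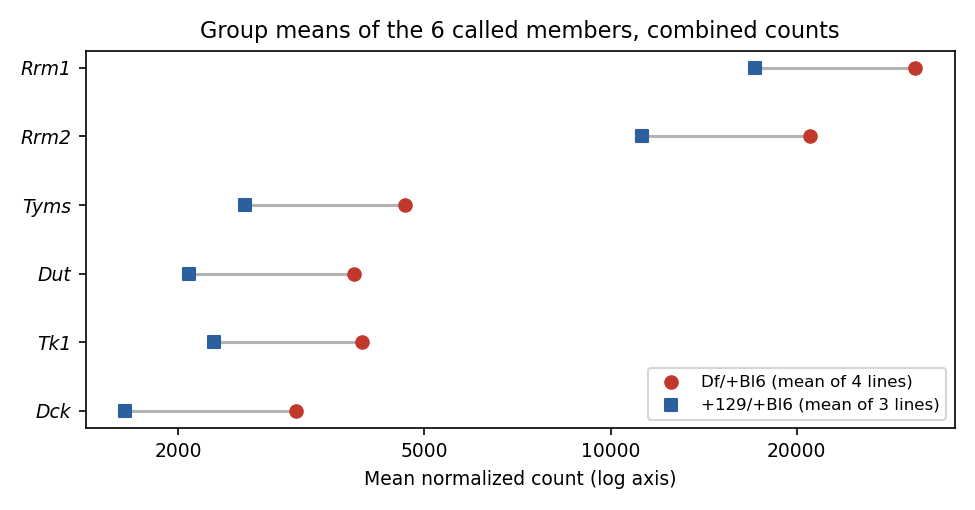
Mean normalized count (log axis) of the 6 called members in Df/+Bl6 (red circles, mean of 4 lines) and +129/+Bl6 (blue squares, mean of 3 lines), with no error since values per line were not used. The lines joining the means are of nearly equal length on this axis, from 1.73-fold for Tk1 to 1.89-fold for Dck, although the levels run from 1640 for Dck to 31105 for Rrm1.

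On the thymidylate route, both enzymes rose. Thymidylate synthase, Tyms (ENSMUSG00000025747), had a mean normalized count of 4644 in Df/+Bl6 and 2559 in +129/+Bl6, a log2 ratio of 0.86. The dUTPase gene Dut (ENSMUSG00000027203) had means of 3847 and 2084, a log2 ratio of 0.88. Per kilobase, the level of Tyms over that of Dut was 0.606 with the deletion and 0.617 without it. The lengths used were 3884 bases for Tyms and 1950 for Dut. Another choice of transcript would change these levels but not how they compare between the genotypes. On NCBI37 a gene on the opposite strand, Gm17448, overlaps Tyms, and the libraries were stranded, but whether the counting used strand is not given in the sources used here.

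Both salvage kinases rose as well, at the opposite ends of the narrow range. Thymidine kinase, Tk1 (ENSMUSG00000025574), had the smallest ratio of the 6, with means of 3967 and 2287 and a log2 ratio of 0.79. Deoxycytidine kinase, Dck (ENSMUSG00000029366), had the largest, with means of 3105 and 1640 and a log2 ratio of 0.92. These ends differ by 0.13 on the log2 scale, and with no spread between lines their order carries no weight. Tk1 is overlapped on the opposite strand by Afmid on NCBI37, as Tyms is by Gm17448.

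The enzymes that lead to UMP gave no call. Cad (ENSMUSG00000013629), the large protein with the first 3 activities of the pathway, and Umps (ENSMUSG00000022814), which makes UMP, were tested and are in none of the 3 tables. That does not show that they were unchanged. Their levels were not used, so the size of change that could have been called for them is not known.

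**Figure D2:**
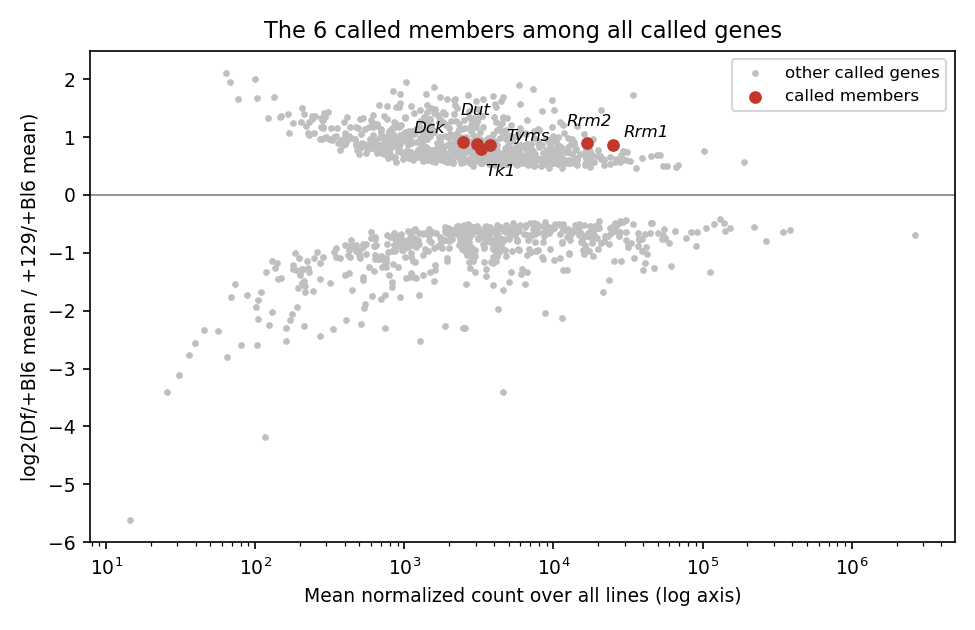
Log2 ratio of the group means against the mean normalized count over all lines (log axis) for the 1346 combined calls, with the 6 called members in red. The members form a flat row between 0.79 and 0.92, in the middle of the rising genes taken at all levels.

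Among all 796 genes that rose, whatever their level, the called members were of middling size. The median log2 ratio of all rising genes was 0.80, with quartiles at 0.65 and 1.04, and the members lay between. Of the rising genes, 49.2% had a smaller ratio than Tk1 and 63.8% a smaller one than Dck, while 28.3% reached a 2-fold rise, which no member did. The spread of the members, 0.13, covered 14.7% of the rising genes. Among the 411 rising genes within the called members' range of mean counts, the median log2 ratio was 0.71, below that of every called member.

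Reads that carry a strain difference were also compared for each allele on its own. Only genes with such differences are counted, and the allelic reads are part of the combined reads of the same lines, so the tables are not independent. Each was normalized separately, and ratios rather than levels are set side by side. For background, 16.3% of the 1346 combined calls were repeated in the 129S5 table and 21.4% in the C57BL/6J table. Of the 6 called members the 129S5 table held 2, Rrm1 and Rrm2, and the C57BL/6J table held 3, with Tyms added, all higher in Df/+Bl6.

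For Rrm1 the mean of the 129S5 allele was 3431 in Df/+Bl6 and 2059 in +129/+Bl6, a log2 ratio of 0.74. That of the C57BL/6J allele was 3018 and 1668, a log2 ratio of 0.86. For Rrm2 the log2 ratio was 1.02 for the 129S5 allele (2822 against 1391) and 0.98 for the C57BL/6J allele (3188 against 1612). Each allele of both reductase genes was therefore higher with the deletion, and whether the alleles differ in their change was not tested. For Tyms, called for the C57BL/6J allele, the means were 990.6 and 482.7, a log2 ratio of 1.04 beside 0.86 in the combined comparison. Dut, Tk1 and Dck are in neither allelic table, and whether they had enough strain-specific reads to be tested there was not examined.

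**Figure D3:**
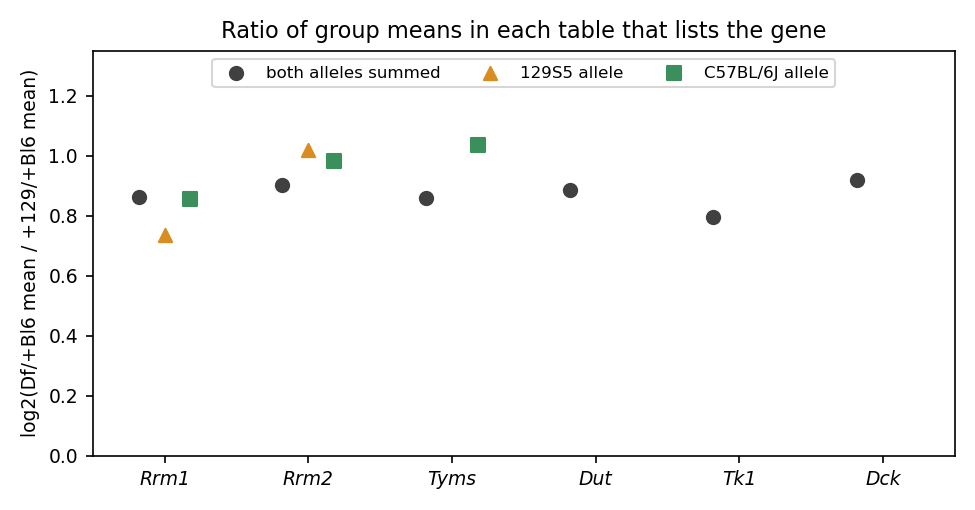
Log2 ratio of the group means, Df/+Bl6 over +129/+Bl6, for the called members from counts summed over both alleles (circles), the 129S5 allele (triangles) and the C57BL/6J allele (squares). Every point lies above 0, from 0.74 for the 129S5 allele of Rrm1 to 1.04 for the C57BL/6J allele of Tyms, and a missing symbol means that the gene was not called in that table.

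Other enzymes of nucleotide metabolism were looked up by pathway, to be read against the 5.13% of tested genes called higher and the 3.54% called lower. Near the thymidylate route, the thymidylate kinase gene Dtymk, the dCMP deaminase gene Dctd, and Shmt1 and Shmt2, which load the folate carrier, were tested and not called.

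In purine synthesis 3 of 13 tested genes rose and none fell. Ppat, the enzyme of the committed step, went from 2192 to 3756 (log2 ratio 0.78). Gmps, GMP synthetase, went from 6665 to 10392 (0.64), and Prps1, which makes the ribose donor PRPP, from 2610 to 3832 (0.55). Each of these ratios was below that of the smallest called member, Tk1 at 0.79, though for Ppat only just. With no spread between lines this order carries no weight. The other genes on the salvage list, 13 tested, and the other pyrimidine synthesis genes, 4 tested, had no call in either direction. Tk1 and Dck were thus called while Tk2 and Dguok, their mitochondrial counterparts, were not. Cda, which also serves salvage, was counted on the breakdown list and was called lower.

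The calls on the list of enzymes that break down nucleotides went the other way. Of 10 tested, 3 were lower in Df/+Bl6 and none higher. Dut, which removes dUTP and rose, was counted with the members and not on this list. Cytidine deaminase, Cda, had means of 44.3 in Df/+Bl6 and 146.9 in +129/+Bl6, a low level with a log2 ratio of -1.73, and the enzyme also serves salvage. Nt5e, the surface 5′-nucleotidase CD73, went from 2386 to 1387 (log2 ratio -0.78), and Nt5c, a cytosolic deoxynucleotidase, from 6411 to 4572 (-0.49). The dNTP hydrolase gene Samhd1 and the pool-cleaning Dctpp1 and Nudt1 were tested and not called.

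Of 5 nucleoside diphosphate kinases, which make the final triphosphates, Nme2 fell, with means of 18298 in Df/+Bl6 and 30054 in +129/+Bl6 (log2 ratio -0.72), and the others were not called. It was lower in both allelic tables, 1906 against 2967 for 129S5 and 3504 against 6504 for C57BL/6J. Nme1 and Nme2 are similar neighbours, and a read-through model across both, which carries the symbol Nme2 too, was also called lower (341.3 against 703.0), so reads may be shared among them and these values are uncertain.

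**Figure D4:**
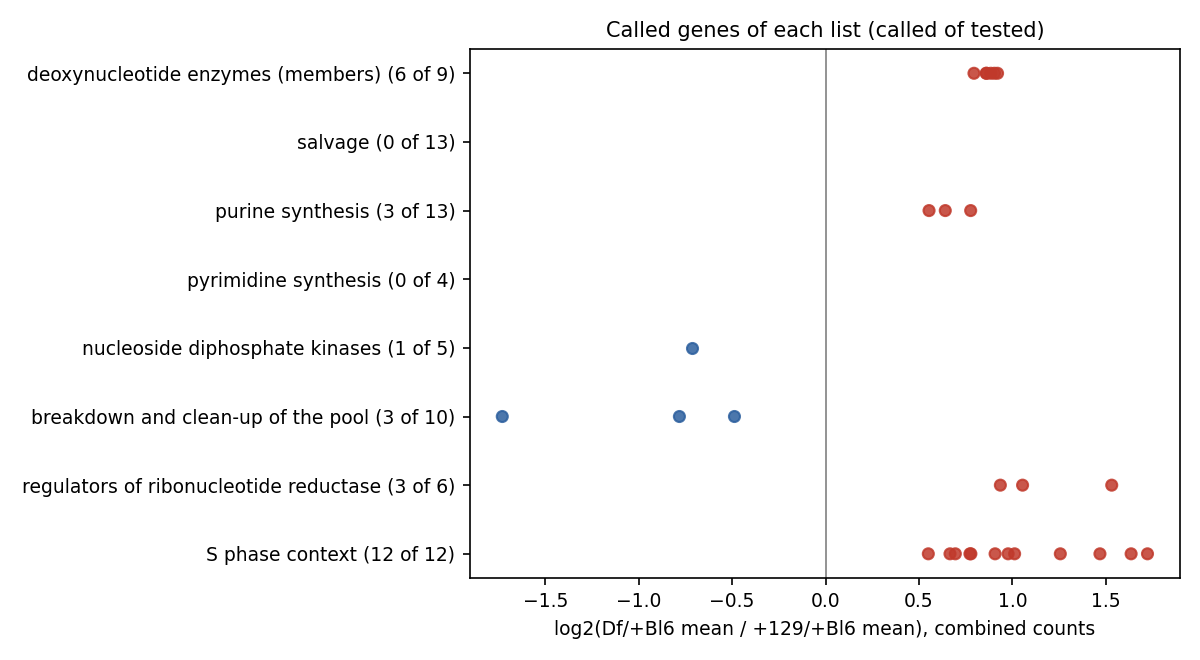
Log2 ratio of the group means, Df/+Bl6 over +129/+Bl6, for every called gene of the members and of each list shown (red higher, blue lower in Df/+Bl6), with the number called of those tested. The members and the S phase genes lie to the right of 0, the called breakdown genes to the left, and the salvage and pyrimidine synthesis lists hold no called gene.

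Some genes that act on ribonucleotide reductase or its subunits rose too. Ccnf, the cyclin F gene whose product directs R2 to degradation in G2, rose from 2436 to 5061, a log2 ratio of 1.05, and it is in both allelic tables (log2 ratios of 1.02 for 129S5 and 1.00 for C57BL/6J). The checkpoint kinase genes Atr and Chek1 rose by 0.94 and 1.53 on the log2 scale. Of the 6 genes on this list 3 were called, all higher, against 5.13% of all tested genes called higher. Fzr1, Trp53 and Wee1 were tested and not called. The genes were chosen with earlier results of these data known, so this count is not independent of them.

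The rise of the members stood beside a rise of proliferation genes. All 12 of a list of S phase and cycling genes were called higher in Df/+Bl6, against 5.13% of all tested genes. The list was drawn up when earlier results of these data were known, so this count is not independent of them. The log2 ratios ran from 0.55 for the cyclin gene Ccne1 to 1.72 for Mki67, with a median of 0.94. The called members, with a median of 0.87, thus lay inside the range of this list. The quartiles of all rising genes, 0.65 and 1.04, lay inside it too, so this position is not particular to the members. The replication clamp gene Pcna rose by 0.67 and the helicase genes Mcm2 to Mcm7 by 0.69 to 1.01. Among the others the cyclin genes Ccna2 and Ccne2 rose by 1.26 and 1.64 and the topoisomerase gene Top2a by 1.47. The share of cells in S phase in each line was not measured, so more cells in cycle and more transcript per cycling cell cannot be told apart.

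Some markers of another cell type moved as well. The Schwann or neural crest markers S100b, Ngfr and Sox10 were called lower in Df/+Bl6, with log2 ratios of -2.32, -1.59 and -1.53, and their summed mean was 679.9 against 2275 in +129/+Bl6. The macrophage, endothelial, epithelial and skeletal muscle lists had no call among 18 tested genes. With 8.67% of all tested genes called, few calls would be looked for in lists of this size, so their absence says little. The part of any of these cell types in the rise of the members was not tested.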

How the data were processed

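The values are from RNA-seq of polyA+ RNA of 7 MEF lines (4 Df/+Bl6, 3 +129/+Bl6). The authors aligned stranded paired-end reads with GSNAP, allowing no mismatch, to the Ensembl release 72 transcriptome (GRCm38/mm10) and to the same transcripts with 129S5/SvEvBrd variants, using the longest transcript per gene. Genes with fewer than 10 reads for each allele were dropped. The deposited signal values are normalized counts from DESeq size factors, averaged by the authors per genotype, for genes called at an FDR of 0.05. The columns of means are headed A and B with no genotype. A was inferred to be Df/+Bl6, because the tables' fold changes are B over A and the study plots its log2 fold changes as positive where +129/+Bl6 is higher. The mean over all lines gives A a weight of 0.571, that of 4 lines among 7. The authors' fold changes and p-values, also in the tables, served for nothing else. A further file gave the list of tested genes, and its 9 unnamed value columns could not be matched to lines and were not used.

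Log2 ratios were computed from the means without a pseudocount. The planned limma comparison of lines was not run, since no column names a line. Members and lists were chosen with earlier results of these data known. Some genes of the folate and Schwann lists are not reported here and were left out of every list count. All members and every called gene of the lists as reported were named, Mcm3 to Mcm6 by their range. For Rrm1 and Rrm2 the 3 genes nearest in ratio were added. Symbols matched 14963 of 15531 identifiers. The ratio and nearest-gene steps were tested on simulated data. Python 3.11.15, numpy 2.4.6 and pandas 2.3.3 were used.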

Additional observations from a re-analysis of the deposited data

How the results depend on the processing

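No line could be left out, because the deposited values are means per genotype, and the planned comparison of lines with its alternatives (another pseudocount, a filter on low values and leaving out each line) was not run. No paired analysis was possible because the labels give the lines no shared numbers and no column names a line. A value was taken as moved when it changed by over 1.5 times. Of 30 alternative values, 23 stayed within that limit and 7 moved, none with a change of sign. A 1.5-fold limit kept all 6 called members and a 2-fold limit left 0. Set against the median log2 ratio of all called genes (0.61), the log2 ratios were 0.25 for Rrm1, 0.30 for Rrm2, 0.25 for Tyms, 0.28 for Dut, 0.19 for Tk1 and 0.31 for Dck. That median is over called genes only, which are not centred on 0, and is no measure of a scaling error. Pseudocounts of 1 and 100 left the ratio of each called member within the limit. The allelic ratios did so for Rrm1 and Rrm2 and for the C57BL/6J allele of Tyms. Dut, Tk1 and Dck have no allelic ratio to compare. The depth behind the means is unknown.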

Other observations

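The genes whose pattern lay nearest to each reductase subunit were taken from the 181 genes with a ratio in all 3 tables, by Euclidean distance over the 3 log2 ratios (combined, 129S5, C57BL/6J). Nearest to Rrm1 was Mcm5, a subunit of the replicative helicase, with log2 ratios of 0.91, 0.81 and 0.88 and a distance of 0.086. It was followed by Cep192, a centrosome scaffold gene (0.78, 0.76 and 0.83), and Ube2t, the ubiquitin-conjugating enzyme of the Fanconi pathway (0.86, 0.82 and 0.89). Nearest to Rrm2 was ENSMUSG00000095432, which has no symbol in the tables used (0.92, 1.01 and 0.94), at a distance of 0.048. Usp37, a deubiquitinase (0.96, 1.05 and 0.98), and Plk1, a mitotic kinase (0.94, 0.96 and 0.99), came next. The 3 tables come from the same lines and share reads, and likeness over 3 such values describes this list of calls only.

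Summed over the 6 called members, the group means came to 67689 with the deletion and 36916 without it, and Rrm1 and Rrm2 made up 77.3% of the difference.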
